A study of Mus musculus with 2 samples.

Results

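Mast cells and basophils were sought in healing skull bone by their transcripts. The members are cell barcodes that held at least 5 UMIs (unique molecular identifiers, each 1 captured RNA molecule) summed over Mcpt8, Cpa3 and Ms4a2, among barcodes that showed 200 or more genes and took no more than 20% of their UMIs from mitochondrial genes. The rule found 173 of 22810 kept cells, 37 of 12279 in the first library and 136 of 10531 in the other. Both libraries came from wild-type C57BL/6 mice with 2 mm defects in the parietal bone, collected 14 days after surgery. The defect held CGG hydrogel in 1 group and CGG-Cit hydrogel in the other, and each group has 1 library. The labels spell out neither abbreviation and do not give the number of mice behind a library. The tissue was digested in 0.3% collagenase and passed through a 70 µm strainer, so cells that this treatment loses were not seen. With 1 library per group no difference could be tested, since cells of 1 library are not replicates. Values therefore carry 95% intervals that cover counting error only.

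Basophils and mast cells are granulocytes that carry the high-affinity receptor for immunoglobulin E, and on crosslinking of that receptor they release histamine, proteases, lipid mediators and cytokines. Basophils mature in the bone marrow and circulate, whereas mast cells complete their maturation in tissues, where the growth factor receptor Kit sustains them. Both arise from myeloid progenitors in the marrow that depend on the transcription factor Gata2. The rule genes mark this branch: Mcpt8 encodes a protease used to mark mouse basophils, Cpa3 encodes carboxypeptidase A3 of mast cell and basophil granules and is also transcribed in progenitors, and Ms4a2 encodes the beta chain of the immunoglobulin E receptor.

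The bases before the start sites of the rule genes and of Prss34, the gene that ranked first in the members, are shown because Gata2 was also among the leading genes and GATA factors bind the letters AGATAA and TGATAA. Each is 250 bases long and reads 5′ to 3′ on the gene's own strand, from RefSeq on GRCm38.p6, and capitals mark AGATAA or TGATAA, or their reverse complements TTATCT or TTATCA. The first is chr17:25298144-25298393 on the plus strand, and the others, all on the minus strand, are chr14:56085198-56085447, chr3:20242182-20242431 and chr19:11623720-11623969.
Prss34: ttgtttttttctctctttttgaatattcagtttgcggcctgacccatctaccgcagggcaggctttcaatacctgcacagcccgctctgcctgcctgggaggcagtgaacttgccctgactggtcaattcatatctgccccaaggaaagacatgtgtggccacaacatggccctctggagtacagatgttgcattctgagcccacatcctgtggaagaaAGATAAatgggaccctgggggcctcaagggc
Mcpt8: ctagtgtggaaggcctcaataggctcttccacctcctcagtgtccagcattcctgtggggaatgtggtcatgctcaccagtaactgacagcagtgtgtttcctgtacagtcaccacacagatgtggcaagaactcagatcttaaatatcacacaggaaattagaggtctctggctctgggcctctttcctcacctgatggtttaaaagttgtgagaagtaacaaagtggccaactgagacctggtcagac
Cpa3: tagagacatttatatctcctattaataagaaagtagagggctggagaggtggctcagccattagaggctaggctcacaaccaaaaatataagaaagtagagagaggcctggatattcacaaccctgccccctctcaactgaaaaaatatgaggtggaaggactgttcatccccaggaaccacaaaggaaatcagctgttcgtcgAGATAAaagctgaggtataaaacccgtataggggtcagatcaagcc
Ms4a2: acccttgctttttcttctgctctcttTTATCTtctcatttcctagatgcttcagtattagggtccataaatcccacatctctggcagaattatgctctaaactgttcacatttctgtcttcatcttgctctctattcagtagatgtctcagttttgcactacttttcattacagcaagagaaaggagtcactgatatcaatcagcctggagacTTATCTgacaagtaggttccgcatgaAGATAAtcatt
The motif stood once in the Prss34 and Cpa3 stretches, with its first base at -31 and -46 from the start, 3 times in that of Ms4a2 (-224, -37 and -11) and not in that of Mcpt8. Of the 15 genes with the highest ratio of members over all other cells, 8 held a match in 300 bases (250 before and 50 after a start), namely Prss34, Cpa3, Ms4a2, Fcer1a, Cd200r3, Slc18a2, Il6 and Il4. A match stood in 18.6% of all 32851 mouse promoters of that length in the same table and for 21.0% of 27025 genes with any promoter. A match describes letters only, and no binding was measured here.

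Facts of the libraries bear on every value that follows. The CGG library held 92517884 UMIs in 12527 barcodes and the CGG-Cit library 106173570 in 10806, and kept cells had medians of 3921 and 6232 UMIs. Members were deeper than the cells around them, with medians of 11595 and 15215.5 UMIs, and a fixed minimum of UMIs is met more readily by deeper cells. The libraries shared 34 barcode sequences, of which 0 belonged to a member. Cells meeting a stromal rule (at least 50 UMIs of Col1a1, Col1a2 and Col3a1) made up 26.7% of kept CGG cells and 0.589% of kept CGG-Cit cells. A doublet caller marked 1 of 37 CGG and 7 of 136 CGG-Cit members. Of the members, 4 and 21 also carried UMIs of another lineage above a set minimum, most often of neutrophils (0 and 10 cells) or B lineage cells (1 and 8).

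The members differed widely among themselves. They were split by the share of their rule UMIs that was Mcpt8 and by 4 mast cell proteases (Cma1, Mcpt4, Tpsb2 and Tpsab1), so these genes are no finding between the strata. At a Mcpt8 share of 0.5 or more, 17 CGG and 71 CGG-Cit cells are called Mcpt8-led. Of the remaining cells, 6 in CGG and 0 in CGG-Cit held at least 3 UMIs of the mast cell proteases and are called mast-protease-bearing, and the other 14 and 65 are called Cpa3-led.

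Mcpt8 ran from 9 to 576 UMIs per cell with a median of 125 in the 17 CGG Mcpt8-led cells and from 4 to 825 UMIs per cell with a median of 178 in the 71 of CGG-Cit. Cpa3 in the Cpa3-led cells ran from 4 to 42 UMIs per cell with a median of 11 in CGG and from 0 to 114 UMIs per cell with a median of 10 in CGG-Cit. These values overlap broadly between the libraries. Near the cut, 2 CGG and 14 CGG-Cit cells had a Mcpt8 share between 0.4 and 0.6. The strata are cut from a single scale, and whether they are separate kinds of cell was not tested. At the rule's own threshold, 2 CGG and 7 CGG-Cit members held exactly 5 rule UMIs, and 10 and 12 cells with 4 were left out. Gata2 was held by 0 of the 2 and 4 of the 7 members at 5 UMIs, and by 3 of the 10 and 7 of the 12 cells at 4.

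**Figure D1:**
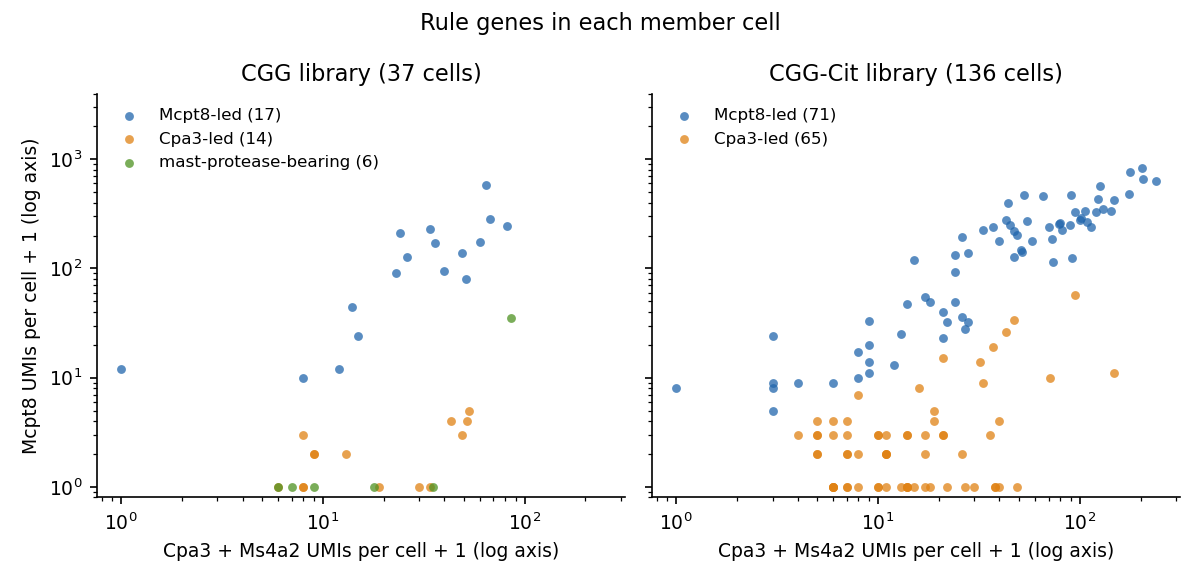
Each point is 1 member cell, with Cpa3 plus Ms4a2 UMIs on the x axis and Mcpt8 UMIs on the y axis, both with 1 added on log axes, for the CGG library (37 cells) and the CGG-Cit library (136 cells), coloured by stratum. Mcpt8-led cells reach 576 and 825 Mcpt8 UMIs, Cpa3-led cells spread along the x axis, and the 6 mast-protease-bearing cells appear in the CGG panel only.

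Against the name of mast cells and basophils, most Mcpt8-led cells carried basophil genes and the 6 mast-protease-bearing cells carried mast cell genes. Most Cpa3-led cells did not carry enough of either, but that stratum was mixed. Its listed basophil genes summed to medians of 1776 and 2219 CPM per cell in CGG and CGG-Cit, with highest cells at 23383 and 40105. In CGG, 1 Cpa3-led cell held 22 Hdc, 3 Fcer1a, 5 Cd200r3 and 10 Il6 UMIs, and 0 of Kit, Cd34 and Mpo. Cpa3-led cells held the progenitor genes Cd34, Kit, Sox4, Myb, Mpo and Prtn3, had no UMI of Cma1, Mcpt4 or Tpsb2, and had low levels of the basophil genes Prss34, Fcer1a and Cd200r3. The low protease UMIs follow from the cut that made this stratum. Low basophil genes may follow in part from its cut on the Mcpt8 share. These cells are named by their rule gene, and no cell type name is given to them.

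Members made up 0.301% (0.212 to 0.415) of kept cells in CGG and 1.29% (1.08 to 1.53) in CGG-Cit, a difference of 0.990 percentage points (0.761 to 1.24) and a ratio of 4.29 (2.96 to 6.34). Mcpt8-led cells were 0.138% (0.0807 to 0.222) and 0.674% (0.527 to 0.850) of kept cells, and Cpa3-led cells 0.114% (0.0623 to 0.191) and 0.617% (0.477 to 0.786). Both strata were thus more frequent in the CGG-Cit library, with ratios of 4.87 (2.84 to 8.82) and 5.41 (3.01 to 10.4). Within the members, the Mcpt8-led share was 45.9% (29.5 to 63.1) in CGG and 52.2% (43.5 to 60.8) in CGG-Cit. That difference of 6.26 points had an interval from -11.5 to 23.3 and was not resolved at this number of cells. Mast-protease-bearing cells were 16.2% (6.19 to 32.0) of CGG members and 0 of 136 in CGG-Cit, which by a limit of 3 cells allows a share of up to 2.21%.

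Several values moved with the higher share in CGG-Cit. Outside the stromal rule the member shares were 0.40% (0.280 to 0.553) and 1.30% (1.09 to 1.53), a ratio of 3.25 (2.24 to 4.83). The CGG-Cit library was also deeper, and cells rich in Mpo, Elane, Prtn3 and Ctsg (at least 20 UMIs together), which include members, were 2.94% (2.65 to 3.25) of kept CGG cells and 7.44% (6.94 to 7.95) of kept CGG-Cit cells. The part of depth and of the other cell types in the share was not tested, and the hydrogel cannot be told apart from the library, its mice and its dissection.

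**Figure D2:**
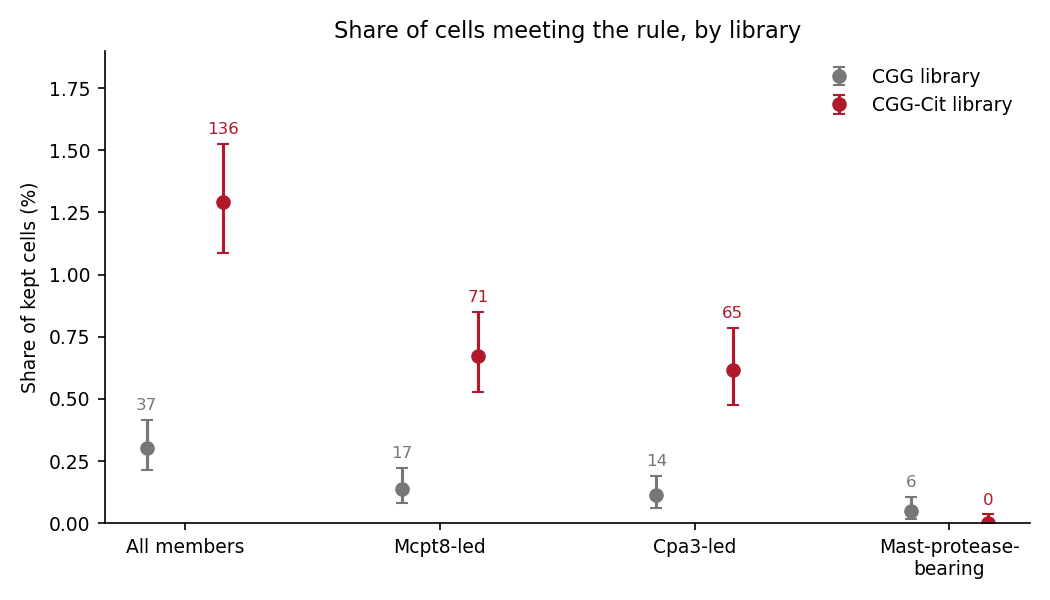
Points give the share of kept cells (%, y axis) that met the rule in the CGG and CGG-Cit libraries, for all members and for each stratum, and bars are exact 95% intervals covering counting error only. The CGG-Cit points for all members (1.29%), Mcpt8-led and Cpa3-led cells lie above the CGG points (0.301% for all members), and the mast-protease-bearing point is at 0 in CGG-Cit.

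Set against all other kept cells of the same library, 58 of 7216 genes (0.804%) were at least 4-fold higher in members in both libraries, with 5 CPM (UMIs per 1000000 UMIs of the group) added to each level. This describes the members and supports nothing further, since the rule chose them from the same cells. Prss34, a tryptase-like protease of basophils, led with 6641 CPM in CGG members against 2.82 in other cells, and 9077 against 4.83 in CGG-Cit. The rule genes came next, followed by Gata2, Fcer1a, Csrp3, Cyp11a1, Cd200r3, Slc18a2, Il6, 4930519L02Rik, Ccl3, Rnase12 and Il4. Of 21 basophil genes measured here 10 were among the 58, and of 6 mast cell surface and signalling genes 1 was, the vesicular monoamine transporter Slc18a2.

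In the Mcpt8-led cells the granule protease Prss34 ran from 0 to 616 UMIs per cell with a median of 176 in CGG and from 0 to 992 UMIs per cell with a median of 302 in CGG-Cit. In Cpa3-led cells it was at 0 in all 14 CGG cells, and in CGG-Cit it ran from 0 to 88 UMIs per cell with a median of 0. Summed, this was 15110 CPM (14640 to 15590) and 21211 CPM (20933 to 21491) in Mcpt8-led cells. Without the deepest cell of each library's stratum the sums were 22425 and 22252 CPM, a ratio of 0.992 (0.959 to 1.03). Prss34 was thus abundant in most Mcpt8-led cells and at 0 in most Cpa3-led cells. Thinned to 1500 UMIs per cell, 94.1% and 83.1% of Mcpt8-led cells kept a Prss34 UMI (94.1% and 90.1% before thinning), and 0% and 18.5% of Cpa3-led cells did. Among B lineage cells, which should lack the gene and served as the measure of free RNA, these shares were 0% and 1.27%, and 0.318% and 3.74% before thinning, at median depths of 2953 and 3309.5 UMIs.

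The receptor genes Fcer1a, Cd200r3 and Fcer1g followed the same split. Fcer1a, the alpha chain that binds immunoglobulin E, ran from 0 to 28 UMIs per cell with a median of 3 in CGG Mcpt8-led cells and from 0 to 89 UMIs per cell with a median of 6 in those of CGG-Cit. In Cpa3-led cells it ran from 0 to 6 UMIs in CGG and from 0 to 6 in CGG-Cit, with medians of 0. The cells with most Fcer1a were Mcpt8-led, and the strata overlapped at the low end. Cd200r3, an activating receptor of basophils and mast cells, summed to 316 CPM (251 to 392) and 443 CPM (404 to 486) in Mcpt8-led cells. In Cpa3-led cells it summed to 28.8 and 35.6 CPM. Without the deepest cells the Mcpt8-led sums of Cd200r3 were 469 and 460 CPM. Fcer1g, the signalling gamma chain shared with other Fc receptors, stood at 1635 and 1789 CPM against 211 and 403. Il3ra, the alpha chain of the receptor for interleukin 3, a growth factor of basophils, differed less. It was at 65.5 and 92.5 CPM in Mcpt8-led and 44.8 and 46.8 CPM in Cpa3-led cells.

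A gene is called higher or lower here where the CPM ratio was at least 2, or at most 0.5, with a counting interval that left out 1. In both libraries 161 of 4052 genes (3.97%) were called higher in Mcpt8-led cells than in the other members and 73 (1.8%) were called lower. Of 21 measured basophil genes 15 were called higher and 0 lower, so their share stood above the 3.97% of all genes, and the strata were cut on a basophil gene. Over both libraries summed, the ratio was 134 (119 to 152) for Prss34, 30.6 (22.9 to 41.9) for Fcer1a, 10.8 (8.41 to 14.2) for Cd200r3 and 12.3 (8.26 to 19.1) for the chemokine receptor Ccr1. Among genes of the immunoglobulin E receptor pathway the subunits Fcer1a and Fcer1g were called higher in both libraries. The kinases Lyn and Syk were not called, with ratios of 1.21 (0.881 to 1.66) and 0.753 (0.549 to 1.03).

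Among the mediator genes 4 of 8 were called higher in Mcpt8-led cells, beside 3.97% of all genes. Hdc, the enzyme that makes histamine, ran from 6 to 39 UMIs per cell with a median of 13 in CGG Mcpt8-led cells and from 0 to 51 UMIs per cell with a median of 10 in CGG-Cit, and from 0 to 22 UMIs per cell with a median of 3.5 and from 0 to 20 UMIs per cell with a median of 6 in Cpa3-led cells. Its summed levels were 1002 CPM (884 to 1132) and 834 CPM (779.8 to 891) against 221 CPM (172 to 279.6) and 289 CPM (262 to 319). Hdc was thus shared by the strata, at a lower level in Cpa3-led cells. The 8 are genes of histamine, leukotrienes and prostaglandins, of which 0 were called lower, and the 4 called higher in both libraries were Hdc, Slc18a2, which loads histamine into granules, and the leukotriene genes Alox5 and Alox5ap. Alox5 was at 219.8 and 271 CPM in Mcpt8-led and 54.4 and 37.0 CPM in Cpa3-led cells.

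Cytokines followed. Il6 ran from 1 to 80 UMIs per cell with a median of 15 in CGG Mcpt8-led cells and from 0 to 51 UMIs per cell with a median of 5 in CGG-Cit, summing to 1195 CPM (1066 to 1336) and 601 CPM (555 to 649). In Cpa3-led cells its sums were 35.2 and 27.3 CPM, and no mast-protease-bearing cell held an Il6 UMI. Il4, the signature type 2 cytokine of basophils, ran from 0 to 25 UMIs per cell with a median of 2 and from 0 to 24 UMIs per cell with a median of 1 in Mcpt8-led cells. Il4 or Il13 was seen in 12 of 17 and 52 of 71 Mcpt8-led cells, in 2 of 14 and 15 of 65 Cpa3-led cells, and in 3 of 6 mast-protease-bearing cells. For Il4, the thinned shares were 41.2% and 18.3% in Mcpt8-led cells and 0% and 0.0270% in B lineage cells.

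Of 9 type 2 and growth factor cytokines 5 were called higher in Mcpt8-led cells of both libraries, namely Il4, Il6, Csf1, Hgf and Osm, and 0 were lower. Hgf, hepatocyte growth factor, stood at 216 and 278 CPM in Mcpt8-led cells, 57.6 and 60.1 in Cpa3-led cells, and 7.63 and 3.33 in all other kept cells. Csf1, the macrophage and osteoclast growth factor, stood at 193 and 315 CPM in Mcpt8-led and 12.8 and 63.6 in Cpa3-led cells. Of 6 chemokines 3 were higher: Ccl3 and Ccl4, which recruit leukocytes, and Ccl6. Of all genes 3.97% were called higher in this comparison. Ccl3 reached 4187 CPM (3942 to 4444) and 3036 CPM (2932 to 3144) in Mcpt8-led cells, and Ccl4 5232 CPM (4957 to 5518) and 4328 CPM (4203 to 4456).

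**Figure D3:**
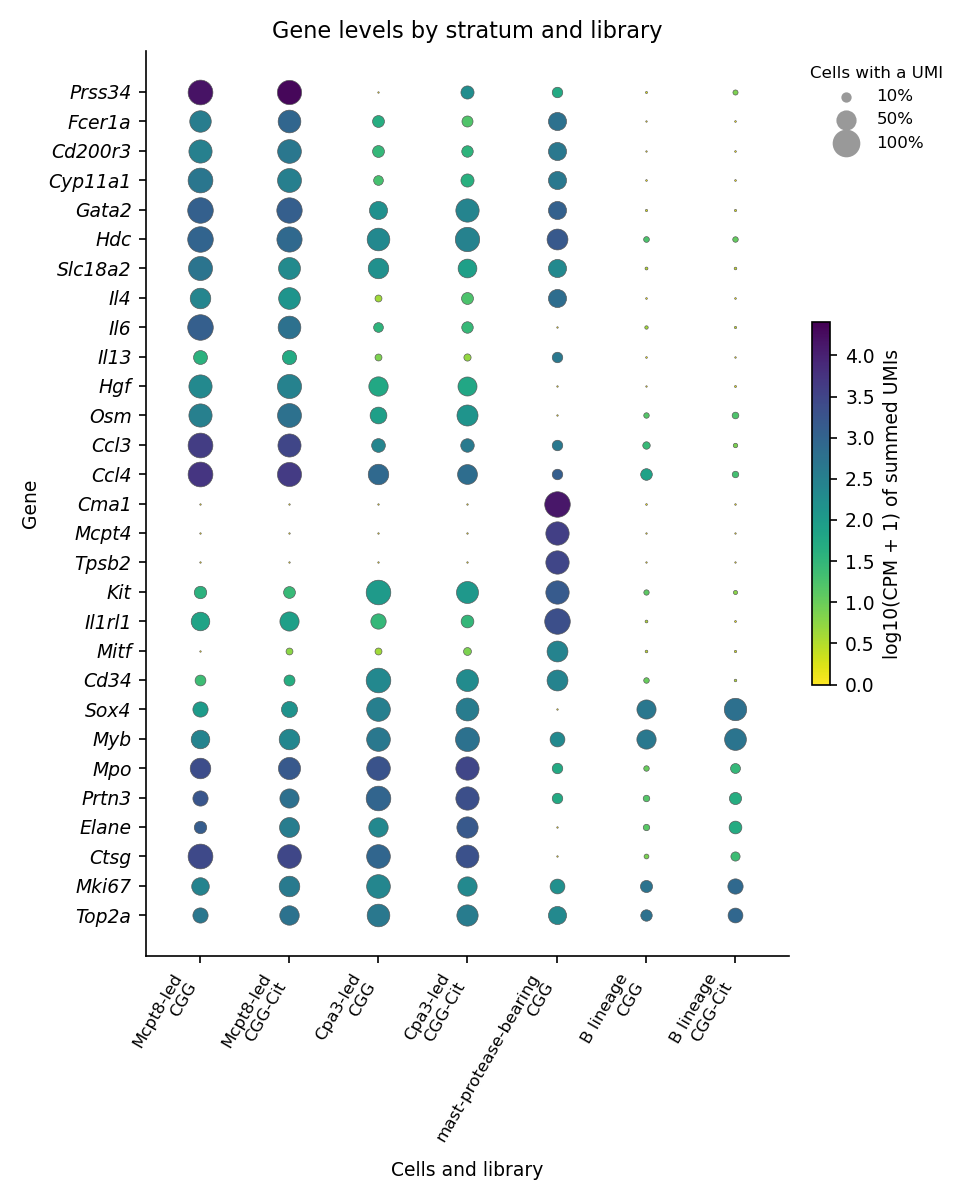
Rows are listed genes and columns are the strata of each library, with B lineage cells as the measure of free RNA. Dot area is the share of cells with a UMI, colour is log10(CPM + 1) of summed UMIs, and Prss34 at the top is darkest in the Mcpt8-led columns while Cd34, Mpo and Prtn3 reach high levels in the Cpa3-led columns.

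Most Cpa3-led cells held progenitor genes instead. Cd34, a surface protein of stem and progenitor cells, ran from 0 to 18 UMIs per cell with a median of 4.5 in CGG and from 0 to 20 UMIs per cell with a median of 3 in CGG-Cit. In Mcpt8-led cells it ran from 0 to 3 and from 0 to 14 UMIs, with medians of 0. Kit ran from 0 to 5 UMIs per cell with a median of 2 and from 0 to 14 UMIs per cell with a median of 2 in Cpa3-led cells, with medians of 0 in Mcpt8-led cells of both libraries. Kit and Cd34 together were seen in 13 of 14 and 41 of 65 Cpa3-led cells and in 2 of 17 and 6 of 71 Mcpt8-led cells. Cpa3-led cells were also deeper, with medians of 23870 and 18906 UMIs against 10349 and 13492. Thinned to 1500 UMIs, Cd34 was seen in 28.6% and 16.9% of Cpa3-led, 5.88% and 4.23% of Mcpt8-led and 2.11% and 0.243% of B lineage cells.

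Of 10 progenitor genes measured, 4 were called lower in Mcpt8-led cells in both libraries, beside 1.8% of all genes: Kit, Cd34, Sox4 and Muc13. Ly6a was called higher, but 88.1% of its UMIs in CGG Mcpt8-led cells came from 1 cell. Over both libraries summed, Ctla2a, an inhibitor of cysteine proteases, was lower by 13.3-fold (9.57 to 19.1), Cd34 by 4.79-fold (3.60 to 6.49) and Kit by 4.46-fold (3.14 to 6.49). The transcription factor Meis1 of stem cells was lower by 4.83-fold (2.73 to 9.18) on that sum but was not called in both libraries. Of 17 lineage transcription factors Gata2, Cebpa and Cebpb were called higher and Lmo2 and Myc lower, beside 3.97% and 1.8% of all genes. Gata2 ran from 1 to 41 UMIs per cell with a median of 19 in CGG Mcpt8-led cells and from 0 to 74 UMIs per cell with a median of 16 in CGG-Cit, and from 0 to 15 UMIs per cell with a median of 0.5 and from 0 to 32 UMIs per cell with a median of 3 in Cpa3-led cells.

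The azurophil granule genes Mpo, Elane, Prtn3 and Ctsg, known from neutrophil and monocyte precursors, were present in both strata. Mpo ran from 0 to 139 UMIs per cell with a median of 33 in CGG Cpa3-led cells and from 0 to 302 UMIs per cell with a median of 30 in CGG-Cit, and from 0 to 544 UMIs per cell with a median of 3 and from 0 to 129 UMIs per cell with a median of 9 in Mcpt8-led cells. Its sums were 1889 CPM (1739 to 2048) and 2991 CPM (2902 to 3082) in Cpa3-led cells and 2371 CPM (2187 to 2566) and 1518 CPM (1444 to 1594) in Mcpt8-led cells. Of the 615 Mpo UMIs of CGG Mcpt8-led cells 544 came from 1 cell, so their sum does not describe that stratum. The ranges per cell overlapped, with higher medians in Cpa3-led cells. Non-member cells chosen for at least 20 UMIs of these 4 genes stood at 5254 and 7337 CPM of Mpo, a level that this choice favours. That set was defined after seeing the data, and its median depths were 6042 and 32301 UMIs. Of the Mcpt8-led cells, 9 of 17 and 47 of 71 held at least 20 UMIs of the 4 genes together, as did 11 of 14 and 46 of 65 Cpa3-led cells. Of the 4 genes only Ctsg summed higher in Mcpt8-led cells of both libraries, at 2710 and 2882 CPM, than in Cpa3-led cells, at 935 and 2001, and it was not called in both libraries. Ctsg, Mcpt8, Cma1 and Mcpt4 lie within 1 protease cluster, with Cma1 at chr14:55941451-55944675 and Ctsg at chr14:56099881-56102574 on GRCm38.

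Along the Mcpt8 share, with the 6 mast-protease-bearing cells left out, the members were also placed in 5 ranges bounded at 0.05, 0.25, 0.5 and 0.75, holding 32, 31, 16, 43 and 45 cells. No CGG cell fell between 0.25 and 0.5. From the lowest to the highest range, both libraries summed, Cd34 stood at 261, 179, 110.3, 61.3 and 24.7 CPM. Prss34 stood at 13.1, 27.7, 875, 14280 and 25146 CPM over the same ranges. On this sum Cd34 was lower in each successive range, and the granule protease was higher in each. In CGG alone Prss34 was level over the top 2 ranges, at 15114 and 15109 CPM. The top range there includes 1 deep cell with 84610 of its 200417 UMIs and 0 of Prss34, which lowers the sum. A last step in CGG was therefore not resolved. Gata2 was nearly level in the first 2 ranges and higher after them, at 229, 219, 331, 1201 and 1238 CPM, and Hdc stood at 201, 283, 456, 746 and 977 CPM. Hdc was thus higher in each successive range of the sum, but in CGG it stood at 1425 and then 878 CPM in the top 2. The latter value includes the same deep cell, which held 16 Hdc UMIs. Mpo was highest in the middle range, at 2373, 2874, 3648, 1627 and 1741 CPM. In the top range it stood at 2934 CPM in CGG, which includes the cell with 544 Mpo UMIs, and at 1251 in CGG-Cit. The middle range rests on 16 cells of 1 library, and no order in time was measured.

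**Figure D4:**
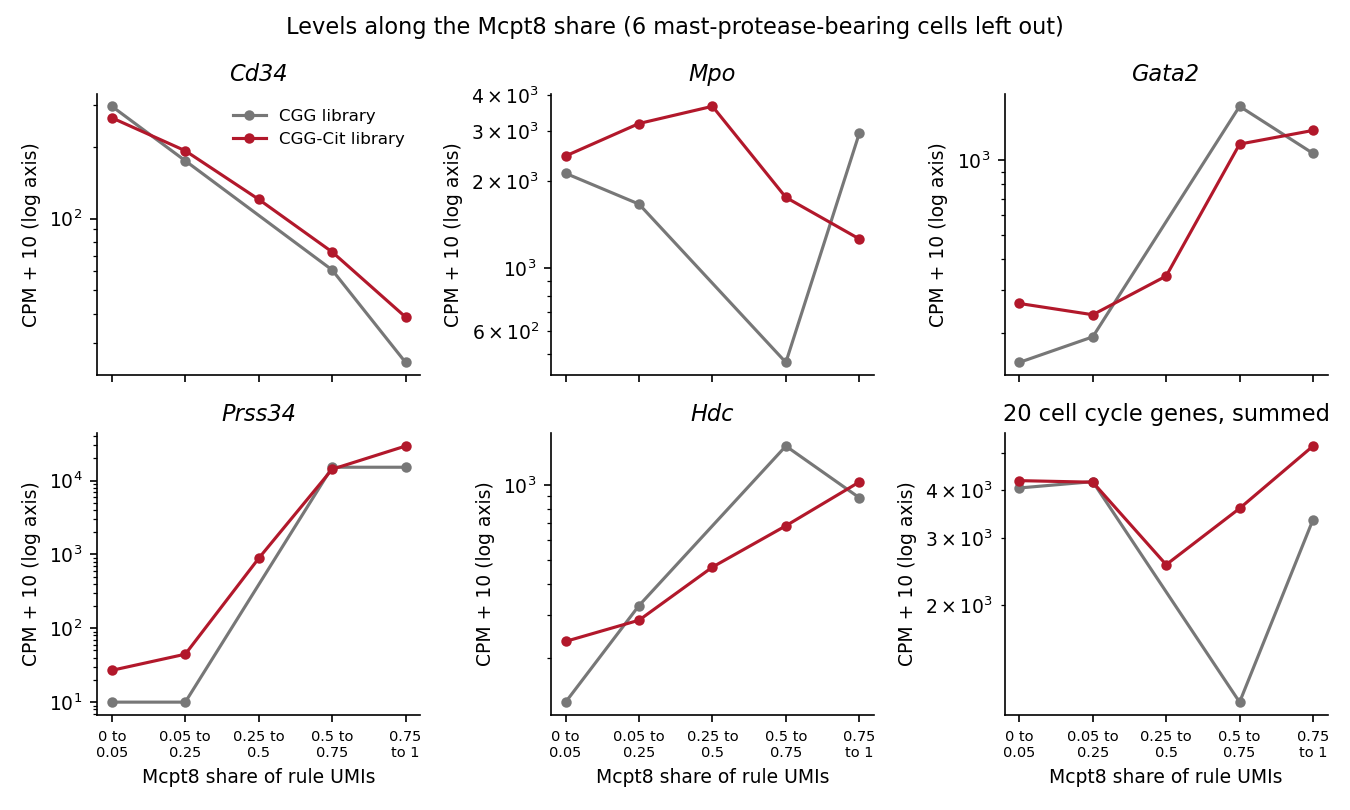
Summed levels of Cd34, Mpo, Gata2, Prss34, Hdc and 20 cell cycle genes (CPM with 10 added, log y axes) in 5 ranges of the Mcpt8 share of rule UMIs (x axis), 1 line per library. In both libraries Cd34 is lower, and Prss34 and Hdc are higher, in the 2 ranges on the right than in the 2 on the left, and the range from 0.25 to 0.5 has CGG-Cit cells only.

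Division genes were spread over both strata. At least 20 UMIs of 20 cell cycle genes were held by 6 of 17 and 40 of 71 Mcpt8-led cells, by 12 of 14 and 43 of 65 Cpa3-led cells, and by 0 of 6 mast-protease-bearing cells. Shares of this kind move with depth, which was highest in the Cpa3-led cells. Summed over the 5 ranges of the Mcpt8 share the 20 genes stood at 4186, 4190, 2541, 3338 and 4666 CPM, with the lowest value in the middle, while the CGG cells alone were lowest between 0.5 and 0.75, at 1103 CPM. Of the 20 genes 0 were called higher and 0 lower in Mcpt8-led cells in both libraries. Mki67, a protein of dividing cells, was at 269.9 and 397 CPM in Mcpt8-led cells and 243 and 214 in Cpa3-led cells, while B lineage cells stood at 522 and 803.

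The 6 mast-protease-bearing cells, all in CGG, were shallow, with 7501, 1837, 3502, 1430, 1648 and 2579 UMIs. In that order they held 75, 14, 26, 12, 40 and 86 UMIs of Cma1, the mast cell chymase that took part in their choice, and 13, 3, 1, 0, 3 and 6 of Kit. Mcpt4, another chymase, was at 0 in the first cell and at 4 to 46 in the other 5, and the tryptase Tpsb2 was at 0 there and at 1 to 33 in the others. The first cell thus stood apart: it also held 34 Mcpt8 and 85 Gzmb UMIs. Reads of Tpsb2 and its near copy Tpsab1 may be split between them.

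Genes that took no part in the choice described the same 6 cells. Il1rl1, the receptor for the alarmin interleukin 33, was seen in 6 of 6 at 2163 CPM (1545 to 2945), against 69.4 CPM in Mcpt8-led and 28.8 in Cpa3-led cells of the same library. Mitf, a transcription factor of mast cells, was seen in 4 of 6, at 270.3 CPM (87.8 to 631). The receptor genes Mrgprb1 and Mrgprb2, the latter known for immunoglobulin E-independent activation of connective tissue mast cells, were each seen in 3 of 6, and the serotonin genes Slc6a4 and Tph1 in 3 and 2. Sox4 and Elane were at 0 in all 6. Their stromal marker RNA summed to 7082 CPM over 8 genes, against 821 in Mcpt8-led and 1428 in Cpa3-led cells of that library, and 1 of the 6 was marked as a doublet.

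Eosinophil granule RNA sat in few members. Prg2, which encodes eosinophil major basic protein, reached at least 50 UMIs in 8 members, a minimum chosen after its values were seen. These were 1 Cpa3-led cell in CGG with 54 UMIs and, in CGG-Cit, 4 Cpa3-led and 3 Mcpt8-led cells with 140 to 979. They held all 54 Prg2 UMIs of CGG members and all but 1 of the 3634 of CGG-Cit members, so the gene was absent from nearly all others. Outside the members, 3 CGG and 17 CGG-Cit cells also reached 50. The 3 Mcpt8-led cells among them held 16, 27 and 22 Mcpt8 UMIs and 0, 8 and 4 Prss34 UMIs, low for that stratum. Epx, eosinophil peroxidase, was at 0 in the CGG cell and ranged from 0 to 87 UMIs in the other 7, and reads of Prg2 and its copy Prg3 may be split between them.

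Between the hydrogels, CGG-Cit members were compared with CGG members on UMIs summed per library. Of 7649 genes 198 (2.59%) were called higher in CGG-Cit and 299 (3.91%) lower. In Mcpt8-led cells alone 240 of 6405 genes (3.75%) were called higher and 296 (4.62%) lower, and in Cpa3-led cells 220 of 7133 (3.08%) and 178 (2.5%). These counts describe 2 libraries and not 2 conditions. With the mean of per-cell CPM in place of summed UMIs, and no interval, 667 genes were higher and 599 lower in members. RNA of other cell types moved with them. The B lineage cells set beside the members were non-members that met no other class's minimum of UMIs, neutrophil, erythroid and stromal rules included. Members were not filtered in this way, so that choice limits the B lineage sums. Summed over 8 neutrophil markers, members held 1128 CPM in CGG and 16411 in CGG-Cit, with 7 of 7 measured markers higher, while B lineage cells held 2566 and 3607. Ly6g did not pass the filter on low counts. Erythroid markers, led by the globins, summed to 1352 and 14867 CPM with 4 of 5 higher, and to 6602 and 13949 in B lineage cells. Stromal markers summed to 1338 and 16.9 CPM with 5 of 5 lower, and to 1468 and 28.3 in B lineage cells. The neutrophil and erythroid sums rested on few cells, since the median CGG and CGG-Cit member held 1065 and 2160 CPM of the former and 1396 and 2286 CPM of the latter, and the highest CGG-Cit member 425416 and 840980. The part of such RNA in the other differences was not tested.

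Ier2, Egr1 and Fos were called higher in CGG-Cit members. Ier2, an immediate early gene, stood at 256 CPM in CGG and 719 CPM (686 to 754) in CGG-Cit members, a ratio of 2.81 (2.38 to 3.34). It was called higher in both strata, with ratios of 3.60 (2.85 to 4.59) in Mcpt8-led and 2.04 (1.60 to 2.65) in Cpa3-led cells, while B lineage cells stood at 105 and 85.8 CPM. The transcription factor Egr1 had ratios of 3.18 (2.49 to 4.11) and 2.39 (1.75 to 3.33) in the strata, and Fos of 2.60 (2.20 to 3.07) and 1.81 (1.54 to 2.12), the latter below the 2-fold limit. Of 19 immediate early genes 3 were called higher (Fos, Egr1 and Ier2) and 1 lower (Atf3), with a median log2 ratio of 0.23 beside -0.04 over all genes. Without the deepest cell of each stratum and library the member ratios were 2.54 for Ier2, 1.77 for Egr1 and 1.83 for Fos, so the calls of Egr1 and Fos were lost, and the Cpa3-led ratio of Ier2 was 1.98, also under the limit. In all other kept cells the order was not the same, with Egr1 at 808 CPM in CGG and 181 in CGG-Cit, and Fos at 2075 and 1194.

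Cd69, an early activation marker, had a ratio of 2.10 (1.73 to 2.57) in members. It came to 1.81 and lost its call without those deepest cells. Cd69 was also higher in CGG-Cit in all other kept cells, at 59.5 and 107 CPM, but not in B lineage cells, at 309.8 and 257. Fut7, a fucosyltransferase that makes selectin ligands, was seen in 41 of 71 CGG-Cit Mcpt8-led cells and 0 of 17 CGG ones, at least 8.0-fold higher against a limit of 3 UMIs over the group. In all members its ratio was 4.22 (2.09 to 9.98), and in all other kept cells Fut7 stood at 2.12 and 6.08 CPM. Id1, an inhibitor of differentiation factors, had a ratio of 3.03 (1.76 to 5.65), and was lower in CGG-Cit in all other kept cells, at 74.8 and 28.7 CPM. The chemokine receptors Cxcr2 and Ccr2 were the 2 genes called higher among 14 trafficking receptors and integrins, at 3.74 (1.76 to 9.52) and 5.32 (2.38 to 14.7). Rnase12, a member of the ribonuclease A family, had a ratio of 2.11 (1.53 to 2.99), and of 1.81 without the deepest cells. In all other kept cells it stood at 0.317 and 0.970 CPM.

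Basophil genes did not move as 1 group between the libraries. Of 23 measured, 2 were called higher in CGG-Cit members (Cd69 and Grm6) and 2 lower (Il4 and Il6), and the median log2 ratio was 0.05 beside -0.04 over all genes. Il6 had a ratio of 0.496 (0.434 to 0.568) and Il4 of 0.491 (0.373 to 0.651) in members. Both were also lower in CGG-Cit in all other kept cells, Il6 at 28.3 and 5.50 CPM and Il4 at 0.874 and 0.323. In B lineage cells Il6 stood at 3.06 and 1.16 CPM and Il4 at 0.218 and 0.179. In Mcpt8-led cells alone, the Il6 ratio of 0.503 (0.438 to 0.578) missed the 2-fold limit, and Il4 stood at 0.529 (0.391 to 0.721). Gata2 and Hdc had ratios of 1.03 (0.910 to 1.17) and 0.832 (0.724 to 0.959) there, within the 2-fold limit. Fcer1a was called higher in Mcpt8-led cells, at 2.56 (2.07 to 3.20), and lower in Cpa3-led cells, at 0.343 (0.168 to 0.725), where 1 CGG cell held 42.9% of the UMIs.

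The cytokine and chemokine genes called in members as a whole were all lower in CGG-Cit. Of 11 cytokines 4 were lower in CGG-Cit members (Il4, Il6, Areg and Vegfa) and 0 higher, beside 3.91% and 2.59% of all genes. The median log2 ratio of these cytokines was 0.07. Within the strata, Areg and Vegfa were called lower in Mcpt8-led cells, at a median of 0.36, and in Cpa3-led cells Vegfa was called lower and Csf1 higher. Of 8 chemokines 4 were lower (Ccl2, Ccl7, Cxcl2 and Cxcl10) and 0 higher, with a median of -0.85, and Cxcl10 came to 0.507 and lost its call without the deepest cells. In Mcpt8-led cells 3 of 8 were lower, at a median of -0.67, and in Cpa3-led cells 2 of 7, at a median of 0.13. Chemokine UMIs summed to 6150 CPM in CGG and 4500 in CGG-Cit members. They were also lower in CGG-Cit in all other kept cells, at 2724 and 862 CPM, and in B lineage cells, at 396 and 119. Vegfa, the angiogenic growth factor, stood at 146 CPM (117 to 179.9) in CGG and 23.8 CPM (18.1 to 30.7) in CGG-Cit members, lower by 6.12-fold (4.35 to 8.68), and it was called lower in both strata. Vegfa was also lower in all other kept cells, at 72.8 and 29.4 CPM, and in B lineage cells, at 24.0 and 10.3. Il1b, an inflammatory cytokine, was lower by 2.84-fold (2.43 to 3.32) in members, but in Cpa3-led cells its ratio was 1.26 (0.711 to 2.41). In members Rgs1, a regulator of G protein signalling, was lower by 3.18-fold (2.78 to 3.63), and Irg1, which makes itaconate, by 3.13-fold (2.58 to 3.79). Both were also lower in all other kept cells, at 278 and 34.4 CPM for Rgs1 and 56.7 and 39.8 for Irg1. In B lineage cells Rgs1 stood at 63.3 and 8.53 CPM and Irg1 at 14.0 and 3.49. Il1b was level in all other kept cells, at 403 and 405 CPM, and lower in CGG-Cit in B lineage cells, at 144 and 76.0. In members Gdf15 was lower by 35.0-fold (15 to 99.9), but 92.0% of its UMIs in CGG members came from 1 cell. It was also lower in all other kept cells, at 66.6 and 2.70 CPM.

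The mast cell proteases were lower in CGG-Cit members, where no cell of the stratum chosen on them was found, by at least 354-fold for Cma1, 99.4-fold for Mcpt4 and 78.4-fold for Tpsb2 against a limit of 3 UMIs. Of 15 interferon response genes 0 were called higher and 7 lower in CGG-Cit members, beside 3.91% of all genes lower. Their median log2 ratio was -0.95. Per cell the order was the reverse, as the median member held 1581 CPM of the listed genes in CGG and 2105 in CGG-Cit. The median Mcpt8-led cell held 1818 and 2517 CPM, and the highest CGG one 19587. Ifi27, outside this list, was called higher in CGG-Cit members, at 2.41 (1.63 to 3.69). In Cpa3-led cells 0 of 9 listed genes were lower and 2 higher, and the Ifi27l2a UMIs of CGG Mcpt8-led cells came to 93.7% from 1 cell. Among 14 survival and NF-kB genes Bcl2l11, Cish and Socs3 were lower and 0 were higher. Cish, induced by cytokine receptors that signal through STAT5, had ratios of 0.416 (0.239 to 0.740) in Mcpt8-led and 0.364 (0.149 to 0.943) in Cpa3-led cells.

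The suffix of CGG-Cit is not spelled out in the labels, and genes that handle citrate were listed in view of it. Of 18 measured genes of citrate transport, the citrate cycle and acetyl-CoA 0 were called higher and 0 lower in CGG-Cit members, at a median log2 ratio of -0.10 beside -0.04 over all genes. Acly, which cleaves citrate to acetyl-CoA, had a ratio of 0.714 (0.495 to 1.05), and Slc25a1, the mitochondrial citrate carrier, a ratio of 1.02 (0.634 to 1.70). The citrate importer gene Slc13a5 had 0 UMIs in members of both libraries. In Cpa3-led cells alone Acss2, an acetyl-CoA synthetase, was called lower. Of 20 cell cycle genes 0 were called higher and 0 lower in members, at a median of 0.26, while in Mcpt8-led cells Birc5 and Ube2c were called higher, at a median of 0.53.

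**Figure D5:**
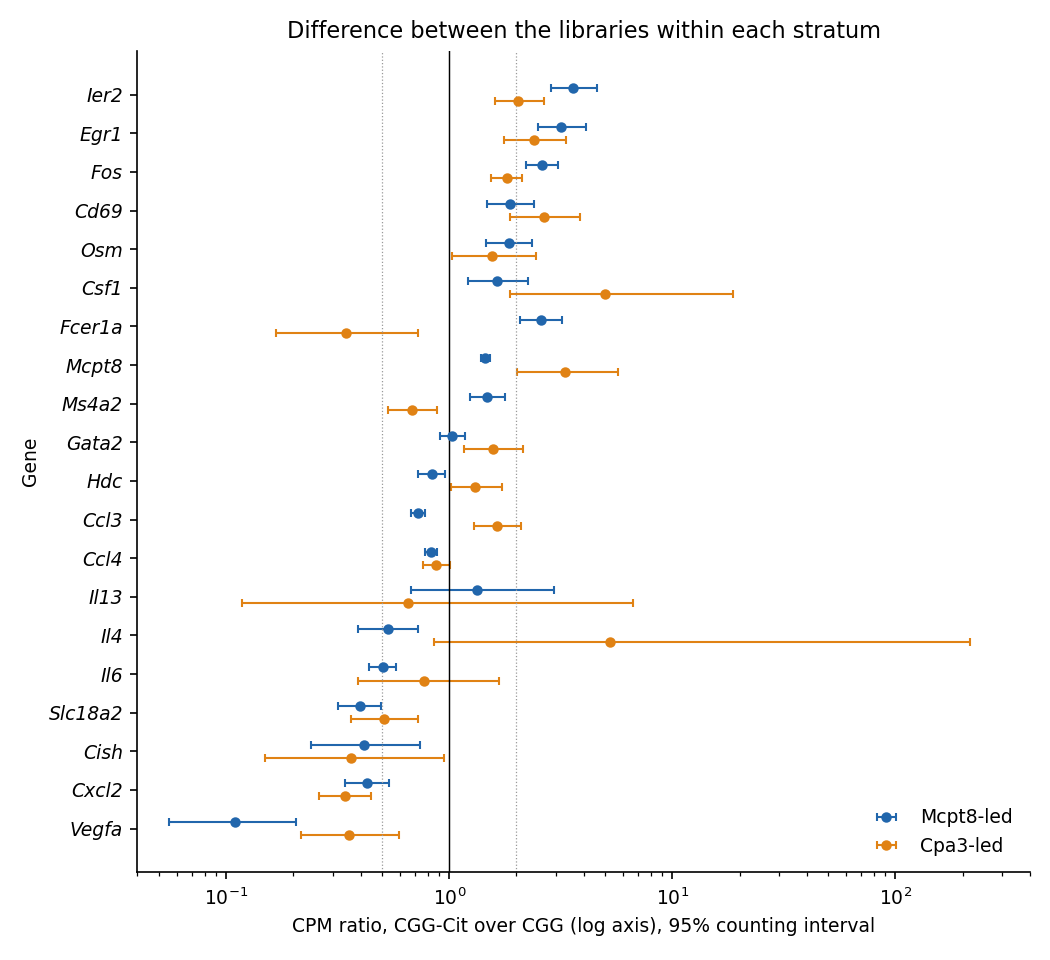
CPM ratios of CGG-Cit over CGG (log x axis) with 95% counting intervals for named genes, drawn separately for Mcpt8-led and Cpa3-led cells, with lines at 0.5, 1 and 2. Ier2 lies above 2 and Vegfa and Cish lie below 0.5 in both strata, while Fcer1a lies above 2 in Mcpt8-led cells (2.56) and below 0.5 in Cpa3-led cells (0.343).

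A single deep cell weighed on the CGG values of the Mcpt8-led stratum. It held 84610 UMIs, 32.6% of the stratum's total, and 98.8% of its Elane, 97.5% of its Prtn3 and 88.5% of its Mpo UMIs. Its rule UMIs were 11 of Mcpt8 and 0 of Cpa3 and Ms4a2. It held 0 UMIs of the basophil genes Prss34, Fcer1a and Cd200r3, 16 of Hdc, 1 of Gata2 and 7 of Kit. It was also among the members that carried UMIs of another lineage. Without the deepest cell of each stratum and library, the Mcpt8-led ratio of CGG-Cit over CGG became 10.2 for Elane in place of 0.276, 7.54 for Prtn3 in place of 0.355, and 3.76 for Mpo in place of 0.640. Direction was thus set by that cell for these genes. In the same stratum Ier2 (2.85), Egr1 (2.20), Fos (2.08) and Vegfa (0.0875) stayed past the 2-fold limits, although Egr1 and Fos did not in members as a whole. Fcer1a came to 1.80, under that limit, and Il6 came to 0.328 and Ccl3 to 0.490, past the lower one.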

How the data were processed

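The libraries were droplet 3′ RNA sequencing of digested tissue from parietal bone defects, 1 per hydrogel, so no p-value or replicate error is given. Each deposited matrix holds whole-number UMI counts for every gene in every barcode, made with Cell Ranger 4.0.0 per the file headers, whereas the submitters' processing notes name Cell Ranger 3.0, on mm10. Kit version 2 or 3 was used, per the labels, which do not give the version of each library. Both matrices list 27998 genes. Reads of near-identical paralogs may be split between them, and such pairs are named as uncertain.

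Counts were analysed with Python 3.11.15, numpy 2.4.6, scipy 1.17.1, pandas 2.3.3 and matplotlib 3.10.9. Scrublet in scanpy 1.11.5 marked doublets, which were kept. Its own threshold marked 1 CGG cell, so the 1231 highest scores (0.8% per 1000 barcodes) were taken there and 537 cells in CGG-Cit. UMIs were summed per stratum and library as CPM. Shares carry exact Clopper-Pearson intervals, levels exact Poisson intervals, ratios exact conditional binomial intervals, and differences of shares Newcombe intervals, all at 95%. Genes needed at least 20 UMIs and a mean of 10 CPM, and list medians use 0.5 UMI added. A level of 0 was set against 3 UMIs over the group. Shares of cells with a UMI were also taken after thinning to 1500 UMIs per cell (shallower cells left out were 0 Mcpt8-led, 0 Cpa3-led, and 43 CGG and 146 CGG-Cit B lineage cells). Alternatives changed the minimum of rule UMIs, the stratum cut, the filters on genes and cells, the fold, the scaling and the cells left out. The calling rule was tested on simulated data.

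Genes named by rank were the 12 highest and 12 lowest between the libraries and the 10 highest and 10 lowest between strata, by the interval bound nearest to 1, with at least 50 CPM, 30 UMIs and 10% of cells in the higher group, and a level there no lower than in all other kept cells. To these came the 15 highest in members over all other cells, with a UMI in at least 25% of members, and genes of the gene lists. Ribosomal, mitochondrial, Gm and sex-differing genes were left out of the ranks. Some of these ranked genes are not described, and some results are not reported here. Members, lists and rules were chosen with earlier results of these data known.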

Additional observations from a re-analysis of the deposited data

Results flagged for a closer look

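In 7 of the 238 listed genes measured in both strata, the ratio of CGG-Cit over CGG lay past the 2-fold limit on opposite sides in Mcpt8-led and Cpa3-led cells, with each interval leaving out 1. The difference between the strata was not tested in any of them. Fcer1a had ratios of 2.56 in Mcpt8-led cells and 0.343 in Cpa3-led cells, and the former was 1.80 without the deepest cells. Gzmb, a granzyme of the chr14 protease cluster, had 0.491 in Mcpt8-led cells and 3.78 in Cpa3-led cells, and the Cpa3-led value rests on 3 UMIs in CGG and on 1 CGG-Cit cell for 84.6% of its UMIs. Prtn3 had 0.355 in Mcpt8-led cells and 2.33 in Cpa3-led cells and Elane 0.276 in Mcpt8-led cells and 6.82 in Cpa3-led cells, and 1 deep CGG Mcpt8-led cell held 97.5% and 98.8% of the UMIs of that stratum. Without the deepest cells these Mcpt8-led ratios were 7.54 and 10.2, on the same side as in Cpa3-led cells. Ifi27l2a, an interferon-induced gene, had 0.309 in Mcpt8-led cells and 2.33 in Cpa3-led cells, with 93.7% of the CGG Mcpt8-led UMIs in 1 cell. The B cell receptor gene Cd79a had 14.6 in Mcpt8-led cells and 0.396 in Cpa3-led cells, from 1 UMI in CGG Mcpt8-led cells and with 92.6% of the CGG Cpa3-led UMIs in 1 cell. Cd74, the invariant chain of antigen presentation, had 2.50 in Mcpt8-led cells and 0.0355 in Cpa3-led cells, with 89.5% of the CGG Cpa3-led UMIs in 1 cell.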

How the results depend on the processing

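No paired analysis was possible because each group has 1 library, and leaving out a replicate was not possible for the same reason. Of the alternatives tried, 71 of 101 left a share or a count of called genes within its error or within 1.5 times, as did 238 of 254 list medians and 442 of 544 ratios of named genes. With a minimum of 3 rule UMIs the Mcpt8-led counts were 101 higher and 32 lower in place of 161 and 73, and with 10 the CGG-Cit Mcpt8-led share was 61.3%. Cutting at a Mcpt8 share of 0.25 gave 64.0% there, and 0.75 gave 27.0% in CGG, 25.7% in CGG-Cit and 66 and 41 genes. Without members that held UMIs of any other class, which are mostly rich in Mpo, Elane, Prtn3 and Ctsg, the member shares differed by 0.153 points, the CGG-Cit Mcpt8-led share was 62.1%, 90 genes were higher and 162 lower between the libraries in place of 198 and 299, 224 in place of 543 were lower in Mcpt8-led cells with the libraries summed, 128 were 4-fold above all other cells in place of 58, and Fcer1a turned to a log2 ratio of -0.38. With the mean of per-cell CPM, a ratio without an interval, 667 were higher and 599 lower between the libraries, so that more genes were higher than lower, and 210 were lower in Mcpt8-led cells. Without a filter 604 were lower in CGG-Cit, and with 50 UMIs 149 were, and 96 and 30 in Mcpt8-led cells. A fold of 1.5 gave 343, 541, 278 and 210, and genes at 2 times the B lineage level or more gave 67 and 145. Alternatives chosen after seeing the data gave 133 genes lower in Mcpt8-led cells without the deepest cells, 139 without members that held UMIs of another lineage, and 178 lower in CGG-Cit with Cpa3-led cells only. In Cpa3-led cells only, the log2 ratio of Fcer1a was -1.56, that of Il1b 0.30 and the mast cell protease median 1.10, which was 0.0028 in Mcpt8-led cells only. The cause of these shifts was not tested. Few CGG members limit the precision, and genes under 20 UMIs were not compared.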

Other observations

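Some leading genes of the members belong to none of the lists. Csrp3, a LIM-domain protein known from striated muscle, ranked seventh above all other cells, at 197 CPM in CGG and 233 CPM in CGG-Cit members against 0.120 and 1.19 CPM. It stood at 235 and 403 CPM in Mcpt8-led and 176 and 108 CPM in Cpa3-led cells. Rnase12, a member of the ribonuclease A family, stood at 69.5 and 147 CPM in members against 0.317 and 0.970 CPM. Gzmc, a granzyme, was higher in Mcpt8-led cells at a ratio of 32.6 (17.9 to 66.0) over both libraries summed, and the receptor gene Gpr34 at 16.2 (8.20 to 36.3). Poln, a DNA polymerase, was higher at 20.4 (9.03 to 57.1) on that sum but was not called in both libraries.

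Receptors that guide cell movement also differed within the members. Of 11 trafficking receptors and integrins 4 were called higher in Mcpt8-led cells of both libraries, Cxcr4, Ccr1, Itgb7 and Itgb2, and Cd34 was called lower. Cxcr4, which holds cells in the marrow, stood at 455 and 434 CPM in Mcpt8-led and 189 and 108 CPM in Cpa3-led cells, while B lineage cells had 522 and 403 CPM. Itgb7, an integrin chain of mast cells and lymphocytes, stood at 131 and 123 CPM in Mcpt8-led and 19.2 and 35.6 CPM in Cpa3-led cells. Ccr3, the eotaxin receptor, was near 0 throughout, at 0 and 6.67 CPM in Mcpt8-led and 3.20 and 1.40 CPM in Cpa3-led cells.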
